A study of Arabidopsis thaliana with 6 samples.

Results

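Under a naming rule, 72 genes on these arrays were taken from the families that loosen, cut, rejoin, build or acetylate plant cell wall polysaccharides. They were taken as the probe sets that name a single gene whose symbol, with any leading AT ignored, starts with EXPA, EXPB, EXLA, EXLB, XTH, GH9, CSL, CESA, GATL or TBL. The 72 probe sets stand for 72 different genes, out of 13513 probe sets that name 1 gene and 22810 in the whole table. They comprise 18 expansins and expansin-like genes, 9 XTH, 15 GH9, 8 CSL and 22 TBL genes. These are parts of the families, since the RefSeq gene table lists 33 XTH, 24 GH9 and 45 TBL genes. It also lists 25 EXPA, 9 CSLA and 6 CSLD genes, of which 10, 2 and 1 are members. Counts and medians by family below cover the members only. The cellulose synthase (CESA) and GATL families had 0 probe sets that the rule could take and were not analysed here.

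The arrays hold total RNA of Arabidopsis thaliana flowers at stage 15, with 1 array for each of 6 samples. Of these, 3 were wild-type Columbia plants and 3 were transgenic plants that overexpress miR159a, whose known targets are mRNAs of MYB transcription factors. The sources used here give neither the promoter of the transgene nor the number of lines or plants behind a sample. Each group carries the letters a, b and c, and no label says whether these are separate plants, so the p-values speak of the spread among these arrays, which may be technical.

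Growing plant cells are held by cellulose fibrils embedded in xyloglucan, xylan, mannan and pectin. Expansins loosen the contacts between these polymers without cutting them, whereas XTH enzymes cut xyloglucan and join the ends to other chains, and GH9 enzymes hydrolyse glucan chains. Synthases of the CSLC family make the glucan backbone of xyloglucan, CSLA synthases make mannan chains, CSLD proteins act mostly in tip-growing cells, and TBL proteins add acetyl groups to wall polymers. In flowers these families serve the growth of petals, filaments and pistil, and the tip growth of pollen tubes.

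Each value is an intensity on a linear scale. The log2 values below are on the scale log2(signal + 16), which shrinks the change of dim genes. The mean signal without the lowest and highest 2% was 200.01 to 200.02 on every array, so the arrays were already scaled, and the array medians lay between 85.2 and 97.0. The first principal component, with 48.0% of the variance, separated the groups, and the second, with 29.7%, set both arrays lettered a apart. Samples sharing a letter also deviated together from their group means, so results are given without and, where it changes a call, with the letter as a block. miR159a and its MYB targets were not analysed here, so they do not check the labels. Of the markers of floral parts, those of pollen, carpel and green tissue were read in wild type. The 2 single-gene probe sets of the tapetum list, for AT5G07230 and AMS, lay at or under 14.9 on all 6 arrays.

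Wild-type signals of these families ranged widely. Of the 72 genes, 10 had a mean wild-type signal of at least 500, 26 lay between 100 and 500, and 36 lay under 100. Signals of different probe sets depend on their probes, so they describe each gene and give no order of transcript amounts. The median of the members' wild-type means was 102, beside 93.8 over all probe sets other than controls. A filter on low signal, taken over both groups, left 57 members to be tested, and the other 15 lay between 0.4 and 32.1 on every array.

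**Figure D1:**
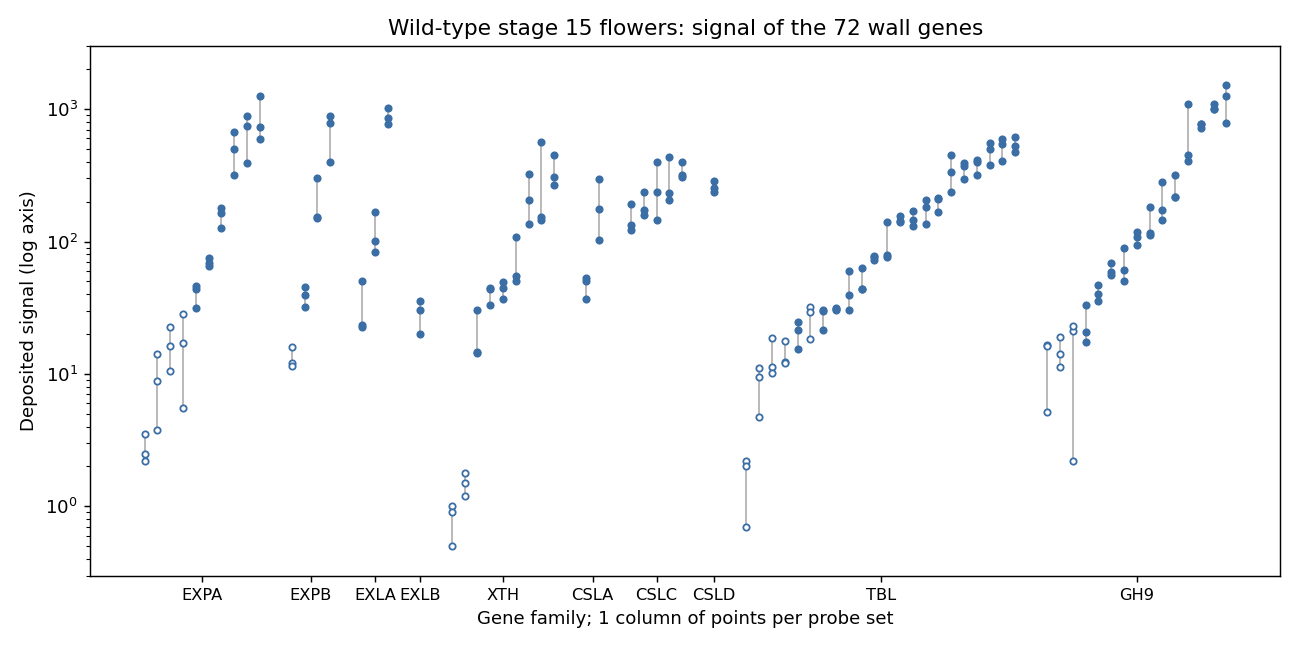
Deposited signal (log axis) of the 72 wall genes in the 3 wild-type arrays, grouped by family and sorted by mean within it. Each column of 3 points is 1 probe set and the grey line spans its arrays; filled points passed the filter on low signal (57 genes) and open points did not (15 genes). CSLC genes all lie between 121.8 and 434.2, whereas EXPA, XTH, TBL and GH9 genes spread from near the floor of the array to far above it.

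Among the expansins, EXLA1, an expansin-like gene, read 769.3, 1019.5 and 863.4 in wild-type replicates a, b and c. EXPA4, an alpha-expansin that acts in pollen tube growth together with EXPB5, read 1261.4, 593.7 and 734.5. The beta-expansin EXPB3 read 892.5, 401.0 and 783.2. The wild-type arrays thus differed by more than 2-fold for EXPA4 and EXPB3, with replicate a highest and b lowest. At the other end, EXPA7 and EXPA18, which act in root hairs, had wild-type means of 8.90 and 16.6 and did not pass the filter.

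The XTH signals spanned a wide range. XTH16 read 304.7, 454.0 and 266.5 in wild type, XTH32 323.4, 135.4 and 204.4, and XTH19 559.9, 152.8 and 144.4. The high reading of XTH19 in wild-type replicate a had a counterpart in overexpressor replicate a, at 310.2 against 154.0 and 142.2 in b and c. XTH21 and XTH26, the latter known from root hairs, had wild-type means of 0.80 and 1.5.

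In the GH9 family, GH9C2, of the class that carries a cellulose-binding domain, read 1529.2, 786.6 and 1249.6 in wild type. GH9B13 read 997.1, 998.4 and 1089.2 and GH9B7 769.6, 713.7 and 765.8, so both were level across the wild-type arrays. GH9C1, known from root hairs, had a wild-type mean of 14.8. Among the TBL genes, TBL45 read 478.1, 530.8 and 618.2, TBL38 406.4, 544.0 and 591.4, and TBL36 377.0, 557.0 and 503.2.

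All 5 CSLC genes of the RefSeq gene table were read, and their wild-type means lay between 149 and 342. CSLC04, the xyloglucan glucan synthase listed elsewhere as CSLC4, read 317.9, 401.5 and 307.5, and CSLC5 read 434.2, 205.7 and 234.0. CSLD2, which acts in root hair growth, read 254.2, 284.3 and 235.1.

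The comparison asked which of these genes differ in flowers when miR159a is overexpressed. The glucanase genes GH9A4 and GH9B11 and the expansin gene EXPB5 fell, 0 members rose, and 54 of 57 did not pass the test. The 3 falls are 5.26% of the tested members, beside 2.17% of all 17059 tested probe sets called lower and 0.135% called higher. By limma's unadjusted p, 7 members were lower and 2 higher at a threshold of 0.05. These are 12.3% and 3.51% of those tested, beside 5.73% and 3.05% of all tested probe sets. With the letter as a block 5 members were lower and 2 higher, 8.77% and 3.51% of those tested, beside 3.34% and 0.416% of all tested probe sets.

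**Figure D2:**
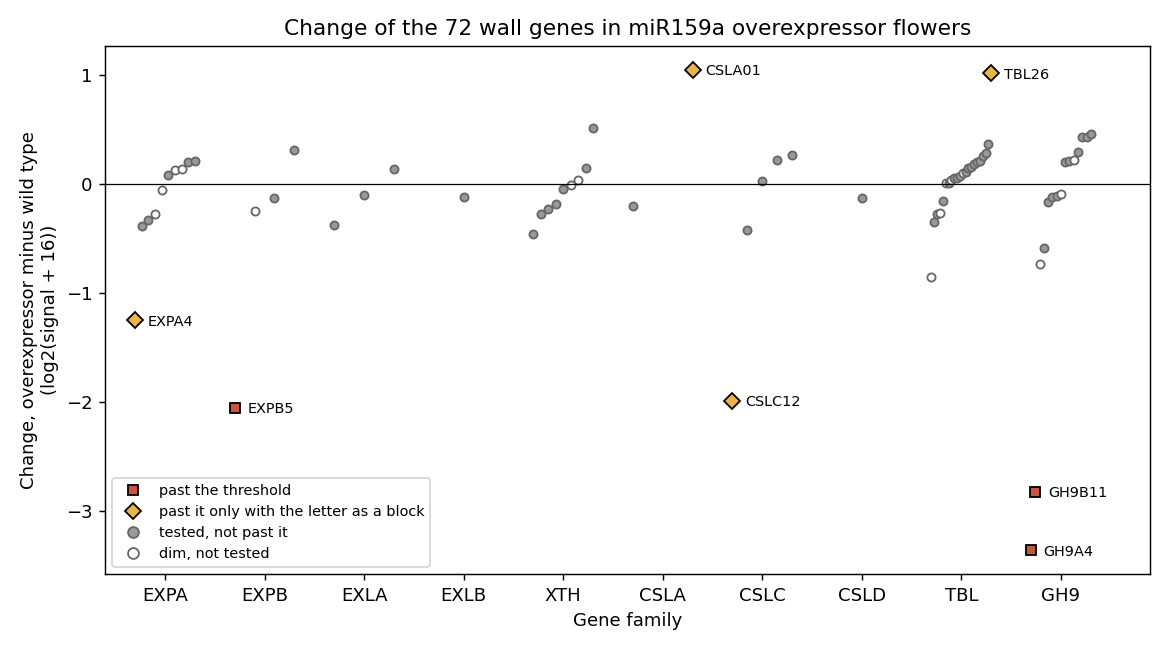
Change of each of the 72 genes, overexpressor minus wild type, on the scale log2(signal + 16), by family. Red squares are GH9A4, GH9B11 and EXPB5, which passed the test; yellow diamonds are CSLC12, EXPA4, TBL26 and CSLA01, which passed it only with the letter as a block; grey points did not pass and open points were too dim to test. The other 50 tested genes lie between -0.59 and 0.51.

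GH9A4, an endoglucanase gene of the class whose best known member is KORRIGAN, was among the members that fell. Its signal was 1086.4, 450.8 and 403.9 in wild-type replicates a, b and c and 34.6, 89.8 and 21.7 in the overexpressor. The groups did not overlap, and the overexpressor mean was 7.53% of the wild-type mean (647 ± 381 and 48.7 ± 36.2, SD, n = 3). The gene fell by 3.35 on the log2 scale (SE 0.46, limma adjusted p = 0.0127). GH9A3, the other gene of that class read here and a relative of KORRIGAN, had a log2 change of 0.29 (95% interval -0.18 to 0.76).

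GH9B11, of the class of secreted endoglucanases, read 279.7, 172.3 and 145.0 in wild type and 3.5, 40.5 and 7.0 in the overexpressor. It fell by 2.82 (SE 0.41, limma adjusted p = 0.0139). Since 2 of its overexpressor signals lay below the pseudocount, the size of the fall depends on the pseudocount. The log2 change was -4.07 with a pseudocount of 1, where the adjusted p was 0.0574, and -1.69 with 64. GH9B12 lies beside GH9B11 on chromosome 2, with 0 protein-coding genes between them in the RefSeq table. It read 40.2, 35.5 and 47.0 in wild type and 18.2, 21.2 and 25.9 in the overexpressor, so its groups did not overlap either. Its log2 change was -0.59 (95% interval -0.96 to -0.22) with adjusted p = 0.165, and the blocked fit gave 0.0724.

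EXPB5, the beta-expansin that acts in pollen tube growth with EXPA4, read 300.3, 153.4 and 151.8 in wild type and 26.3, 57.6 and 24.7 in the overexpressor. It fell by 2.05 (SE 0.32, limma adjusted p = 0.0173), to 17.9% of the wild-type mean. The groups did not overlap, and the same-letter differences were -2.90 for a, -1.20 for b and -2.04 for c. EXPA4, its partner, read 552.9, 238.2 and 285.0 in the overexpressor, all below the lowest wild-type array. Its log2 change was -1.25 (SE 0.36) with limma adjusted p = 0.221. The blocked fit gave an adjusted p of 0.00349. The differences between arrays of the same letter were level, at -1.17, -1.26 and -1.32, and the arrays kept 43.8%, 40.1% and 38.8% of the signal of their wild-type counterpart.

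The other expansins did not pass the test. Of 6 tested EXPA, 3 EXPB, 3 EXLA and 1 EXLB genes, 1 fell and 12 did not pass, with changes other than those of EXPB5 and EXPA4 from -0.39 to 0.31. EXPA16 read 46.2, 31.3 and 43.7 in wild type and 26.5, 27.2 and 26.6 in the overexpressor, with a log2 change of -0.39 and adjusted p = 0.536. EXLA1 and EXPB3, whose wild-type signals were given above, had log2 changes of 0.14 (95% interval -0.56 to 0.83) and 0.31 (-0.53 to 1.14). EXLA1 read 683.2, 1580.7 and 834.2 in the overexpressor, with b high, and its change was -0.21 without overexpressor replicate b. EXPB3 read 1253.9, 587.0 and 732.6, and its change was -0.04 without wild-type replicate b.

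CSLC12, 1 of the 5 xyloglucan glucan synthase genes, read 395.2, 237.4 and 146.0 in wild type and 49.2, 84.0 and 25.4 in the overexpressor. The groups did not overlap, and the overexpressor mean was 20.4% of the wild-type mean. Its log2 change was -1.99 (SE 0.40) with limma adjusted p = 0.0505, and the blocked fit gave 0.00485. The adjusted p was under the threshold in 6 of 16 alternatives, among them 0.0378 with median centring, 0.0334 with array weights, 0.0391 without wild-type replicate c and 0.0251 without overexpressor replicate b. The other 4 CSLC genes had log2 changes of 0.26 for ATCSLC08, 0.22 for CSLC04, 0.02 for CSLC5 and -0.42 for CSLC6. The 95% intervals of these 4 all lay within 2-fold, whereas that of CSLC12 ran from -2.92 to -1.06.

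**Figure D3:**
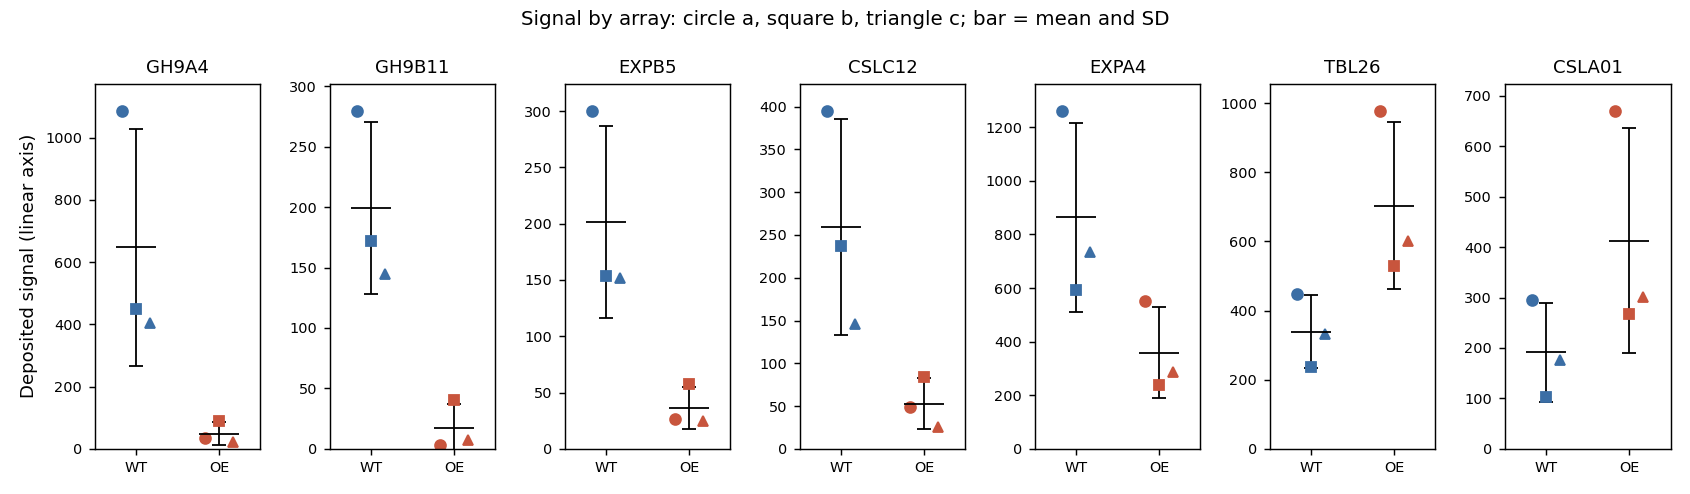
Deposited signal (linear axes from 0, 1 per gene) of the 7 genes called in either fit, in wild type (WT, blue) and overexpressor (OE, red) arrays; circles are letter a, squares b and triangles c, and the bars give mean and SD of 3 arrays. The lower bar of GH9B11 in the overexpressor is clipped at 0. Except for CSLA01, whose lowest overexpressor array reaches into the wild-type range, the groups do not overlap.

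Mannan genes were read by CSLA01 and CSLA03 and by TBL23, TBL25 and TBL26, which belong to the mannan acetyltransferases. TBL26 read 448.6, 236.7 and 332.5 in wild type and 977.8, 529.1 and 601.3 in the overexpressor, with no overlap and 2.07 times the wild-type mean. Its log2 change was 1.01 (SE 0.29) with limma adjusted p = 0.218. The blocked fit gave 0.0084. CSLA01 read 295.6, 102.2 and 175.8 in wild type and 670.5, 267.8 and 300.7 in the overexpressor. Its groups overlapped, but each overexpressor array lay above the wild-type array of its letter, by 1.14, 1.26 and 0.72 on the log2 scale. The log2 change of CSLA01 was 1.04 (SE 0.43) with limma adjusted p = 0.527, and the blocked fit gave 0.0126. That fit was the only 1 of 16 alternatives in which it passed. The change was 0.64 without overexpressor replicate a and 0.99 without both arrays lettered a. CSLA03, TBL23 and TBL25 had log2 changes of -0.21, 0.37 and -0.16 and did not pass in either fit. These 5 genes were set side by side after their values were seen.

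The XTH genes showed no call in either fit. Of 7 tested, 0 fell and 0 rose, also at an unadjusted p under 0.05, and their median log2 change was -0.18. XTH33 read 43.8, 44.9 and 33.2 in wild type and 34.9, 161.0 and 41.5 in the overexpressor, so its log2 change of 0.51 rests on overexpressor replicate b and was -0.06 without it. XTH18 and its neighbour on chromosome 4, XTH19, had log2 changes of -0.46 and -0.28. XTH18 read 108.5 in wild-type replicate a and 35.5 to 57.6 on the overexpressor arrays, beside 50.6 and 54.6 on wild-type b and c. Without wild-type replicate a the change of XTH19 was 0.33. XTH16 and XTH32 had log2 changes of -0.18 and 0.14, and intervals of 4 of the 7 genes lay within 2-fold.

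Of 17 TBL genes tested, 0 passed the test and 16 had a 95% interval within 2-fold, the exception being TBL26. TBL45, TBL36 and TBL38 had log2 changes of 0.15, 0.20 and -0.35. TBL38 read 347.4, 463.2 and 383.0 in the overexpressor, overlapping wild type. The xylan acetyltransferase genes TBL28, TBL32, TBL34 and TBL35 had changes of 0.11, 0.21, 0.01 and 0.28. The probe set named TBL32 carries a mark for probes shared with other transcripts, the only such member. TBL35 read 170.8, 144.2 and 130.2 in wild type and 179.3, 193.8 and 176.8 in the overexpressor, without overlap but with adjusted p = 0.726.

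Apart from GH9A4 and GH9B11, GH9 genes did not pass the test in either fit. In the cellulose-binding class the log2 change was 0.43 for GH9C2 (adjusted p = 0.843) and 0.46 for GH9C3 (adjusted p = 0.617). GH9C2 read 2053.8, 1082.9 and 1656.1 in the overexpressor, above the wild-type array of the same letter by 0.42, 0.45 and 0.40, and in the blocked fit the adjusted p was 0.180. GH9C3 read 33.2, 20.7 and 17.5 in wild type and 49.0, 29.5 and 36.8 in the overexpressor. GH9B13 read 1144.8, 1233.4 and 1162.6, all above wild type, but by only 0.20 on the log2 scale (95% interval -0.13 to 0.52). GH9B7 and GH9B8 had log2 changes of 0.21 and 0.43, and GH9B17 and GH9B18, neighbours on chromosome 4, of -0.12 and -0.11.

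By family, the median log2 change was -0.12 for the 13 expansins, -0.18 for the 7 XTH, -0.05 for the 8 CSL, 0.15 for the 17 TBL and 0.04 for the 12 GH9 genes tested. Over all 57 members it was 0.05, beside 0.04 over all tested probe sets. Over the alternatives the median ran from -0.27 to 0.14 for expansins, -0.14 to 0.09 for CSL, -0.09 to 0.21 for GH9 genes and -0.04 to 0.15 for all members, so these carry no direction. That of the XTH genes ran from -0.21 to -0.01 and that of the TBL genes from 0.07 to 0.20. Between arrays lettered a, b and c the XTH medians were -0.23, 0.17 and -0.15. The TBL medians were 0.09, 0.17 and 0.03, beside 0.06, 0.01 and 0.04 over all tested probe sets. A direction of either family was not tested. The 95% interval of the change lay within 2-fold for 43 of 57 members, 75.4%, beside 86.5% of all tested probe sets. The groups did not overlap for 8 members lower in the overexpressor, 14.0%, beside 7.2% of all tested probe sets. They did not overlap for 3 members that were higher, 5.26%, beside 7.46%. The 8 lower members are the 5 named falls of the blocked fit, GH9B12, EXPA16 and TBL42, and the 3 higher ones are TBL26, GH9B13 and TBL35.

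The 15 members below the filter had log2 changes from -0.85 to 0.22, without a test. Because the filter averages both groups, a fall can itself take a gene below it. TBL20 read 32.1, 29.1 and 18.2 in wild type and 6.9, 14.7 and 2.0 in the overexpressor, and EXPB2 read 12.0, 16.1 and 11.4 against 11.2, 10.1 and 4.5. GH9B6 read 21.0, 22.9 and 2.2 against 0.9, 2.7 and 2.1, so wild-type replicate c lay with the overexpressor. These 3 were chosen after their values were seen, and at such signals the scale leaves little room for a change.

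Most markers of mature pollen moved with the falls. Of 31 genes in that list 15 had a probe set that names 1 gene, and 14 were tested. By limma 10 fell and 0 rose, beside 2.17% and 0.135% of all tested probe sets, and the median log2 change was -1.86. The number lower was 4 with a pseudocount of 1 and 0 without wild-type replicate b. The 10 are ANX1, ANX2, AT4G39110 (BUPS1), AT2G21480 (BUPS2), AT3G19020 (LRX8), AT1G49490 (LRX9), AT2G15880 (LRX10), AT4G33970 (LRX11), ACT12 and TUA1. The 2 others with the smallest p, AGL66 and AGL104, had log2 changes of -0.91 and -0.77. The remaining tested markers, TUB9 and AGL65, added after their values were seen, had changes of -0.59 and -0.12. None of these 4 was called in either fit. The summed signal of the 15 was 3655 to 6604 in wild type and 1196 to 2084 in the overexpressor, and the lowest single signal was 1.3. The overexpressor signals were at a median of 9.37% of the wild-type mean in replicate a, 27.7% in b and 6.01% in c. Wild-type replicates a, b and c were at 146%, 88.8% and 64.3%. The list was chosen with earlier results of these data known and is not independent evidence.

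GH9A4 stood at 5.35%, 13.9% and 3.35% of its wild-type mean in overexpressor replicates a, b and c, GH9B11 at 1.76%, 20.4% and 3.52%, EXPB5 at 13.03%, 28.5% and 12.2% and CSLC12 at 19.0%, 32.4% and 9.79%. In these 4 genes, as in the median of the pollen list, b was the highest overexpressor array and a the highest wild-type array. Not every marker of that list had this order. ACT12, TUA1, AGL104 and AGL65 were highest in overexpressor replicate a among overexpressor arrays, and TUB9 was highest in wild-type replicate c. The other tested markers had the order of the 4 genes. The first principal component of all tested probe sets had a like order. Wild-type a, b and c stood at -39.9, -31.4 and -22.8 on it, and overexpressor a, b and c at 37.8, 12.9 and 43.4. The share of all falling probe sets with this order was not counted. EXPA4 stood at 64.1%, 27.6% and 33.0%, with a highest and b lowest. TBL26 and CSLA01 were also highest in a and lowest in b in both groups. In flowers as a whole, fewer cells of a type and less RNA per cell cannot be told apart, and the part of pollen in these falls was not tested.

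**Figure D4:**
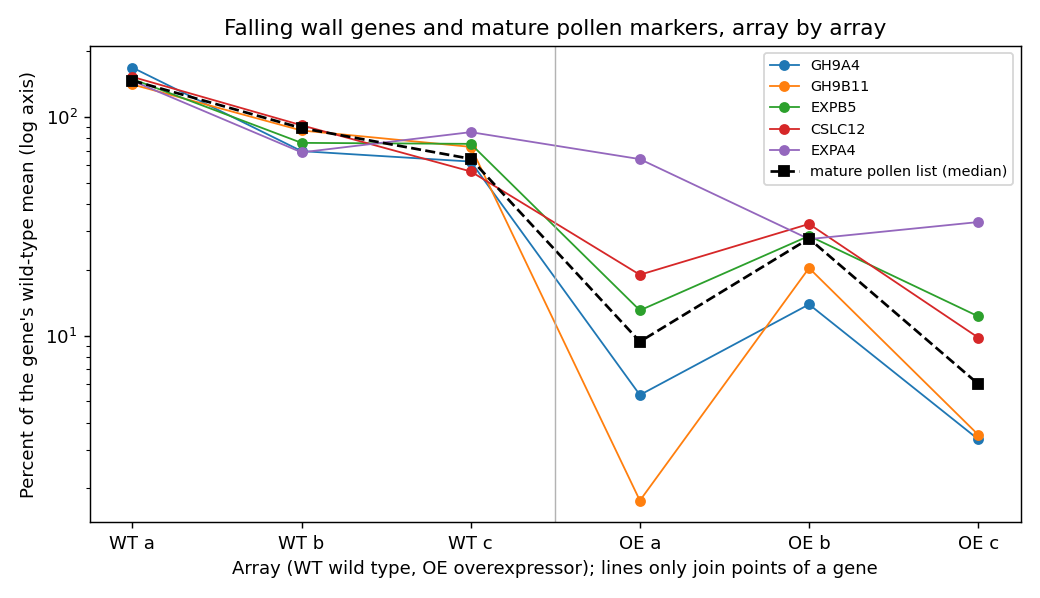
Signal of the 5 lower genes as percent of each gene's wild-type mean (log axis), array by array, with the median of the 14 tested mature pollen markers (black, dashed); lines only join the points of a gene. GH9A4, GH9B11, EXPB5, CSLC12 and the pollen median are highest in wild-type replicate a and, among overexpressor arrays, in b, whereas EXPA4 is highest in overexpressor replicate a.

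Markers of other floral parts did not pass the test. The carpel and ovule list, read by 4 tested genes, had a median log2 change of 0.24, with ALC at 0.32 and NGA2 at 0.37, and the summed signal of the 5 genes with a probe set, the untested NGA3 included, was 495 to 594 in wild type and 605 to 708 in the overexpressor. The green tissue list, also 4 genes, had a median of 0.27, with LHCB4.2 at 0.35 and PSBY at 0.24. For the 4 reference genes the median was 0.13, and the values of AT4G34270 and AT2G28390 were 0.33 and 0.18. By limma 0 genes of these 3 lists were called, with 0 also at an unadjusted p under 0.05. Neither tapetum gene was tested.

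Of 72 other wall genes in 7 lists, 7 had a probe set that names 1 gene. Of these 6 were tested, with 0 called by limma and a median log2 change of 0.18. At an unadjusted p under 0.05 there was 1 higher and 0 lower. In xylan synthesis, IRX15-L read 85.6, 60.0 and 55.9 in wild type and 146.7, 93.3 and 83.6 in the overexpressor, a log2 change of 0.56 with adjusted p = 0.540. GUT2 and GUT1, xylan backbone synthesis genes, had changes of 0.12 and 0.11. COB, which orients cellulose deposition, had a change of 0.28 and THE1, a receptor kinase that senses wall damage, 0.25. USP, which makes nucleotide sugars, had a change of 0.11. The lists for xyloglucan synthesis and trimming, callose, pectin synthesis and secondary wall switches had 0 probe sets that name 1 gene. They were not analysed here, which does not mean that the array lacks probes for them.

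Some members had the same highest or lowest letter in both groups. The a arrays were the highest of both groups for 19 of 57 members, 33.3%, beside 25.6% of all tested probe sets, and the b arrays for 9, 15.8%, beside 11.7%, and the c arrays for 3, 5.26%, beside 12.1%. The lowest of both groups were the a arrays for 7, 12.3%, beside 19.9%, the b arrays for 14, 24.6%, beside 13.8%, and the c arrays for 11, 19.3%, beside 14.1%. Members with a highest and b lowest in both groups included EXPA4, EXPA15, EXPB3, GH9C2, XTH32, CSLA01 and TBL26. EXPA15, an alpha-expansin, read 670.4, 319.6 and 502.2 in wild type and 581.8, 230.2 and 391.7 in the overexpressor, and its log2 change was -0.33 with an SE of 0.36 without the block and 0.14 with it. The standard error of EXPA4 fell from 0.36 to 0.13 and that of CSLA01 from 0.43 to 0.16. In proportion, the drops of EXPA4, CSLA01 and EXPA15 were the largest among the 57 tested members. The standard error changed less for GH9A4 (0.46 to 0.38), GH9B11 (0.41 to 0.36) and EXPB5 (0.32 to 0.29). It changed least for EXPB1, from 0.162 to 0.159.

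The calls of the 3 fallen genes were lost in some fits with arrays left out, as were many calls over all probe sets. There the number lower went from 370 to 33 without wild-type replicate b and to 159 without overexpressor replicate c. It was 187 without overexpressor replicate a and 87 without both arrays lettered a. Without wild-type replicate b the adjusted p was 0.0614 for GH9A4, 0.0680 for GH9B11 and 0.0670 for EXPB5, and without overexpressor replicate c it was 0.0529, 0.0661 and 0.0838. Without overexpressor replicate a that of EXPB5 was 0.0642, and without both arrays lettered a the 3 values were 0.0645, 0.0785 and 0.0786. The log2 changes stayed between -3.80 and -2.58 for GH9A4, between -4.07 and -1.69 for GH9B11 and between -2.48 and -1.38 for EXPB5 over all alternatives in which the gene was tested.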

How the data were processed

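The deposited table holds 1 intensity per probe set and array, on a linear scale, for 6 arrays. The sources used here do not name the authors' software or scaling. Gene names come from GEO's platform annotation, which can be old, and were matched by gene identifier to RefSeq's genes (assembly TAIR10.1), where all 72 members had a locus. These were used only for names and neighbouring genes, since the array build is not named, and no sequences were used here.

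Signals were put on log2(signal + 16) with no further normalisation. Controls (64) and the dimmest 25% of the rest by mean log2 value (5687) were left out. On the remaining 17059, limma 3.58.1 under R 4.3.3 (lmFit, eBayes) gave two-sided tests, adjusted over all of them by Benjamini-Hochberg, at a threshold of 0.05. Each adjusted p comes from this fit unless another is named, and intervals are at 95%. The fit was tested on simulated data in 2 versions. The first, with each probe set's own spread, recovered fewer changes than had been required of it, and the second, with moderated spreads and a lower requirement, was written after that. The number of arrays limits the precision.

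Deviations from the group means correlated with r = 0.57, 0.36 and 0.38 between arrays lettered a, b and c, against at most 0.10 for other letters, over probe sets. The letters were therefore taken as pairs in the blocked fit only. The main fit has no block, since no label says what the letters pair. Deviations within a group cancel out, which in itself lowers the correlations between letters.

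The members, the wall and marker lists and the alternatives were chosen with earlier results of these data known. Genes named are the members called, the 3 with the highest wild-type mean in each family, the 6 largest uncalled rises and falls and, of each list, the called genes and up to 2 others with the smallest p. Others named for a known role or a neighbour, or as noted, were chosen after their values were seen. A gene with several probe sets was read by the brightest in the lists. The alternatives tried were other scalings (quantile, median centring), other pseudocounts (1, 64), other filters (none, the lowest 50%), other variance models (intensity trend, array weights), the block, each array left out, both arrays lettered a left out, membership by any current symbol or synonym, and members without a mark for shared probes.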

Additional observations from a re-analysis of the deposited data

Results flagged for a closer look

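Outside the comparisons, a control for 25S ribosomal RNA stood at 3079.6 on the overexpressor array lettered a, above the 11.1 to 32.6 of wild type and the 29.6 and 51.2 of the other overexpressor arrays. Without overexpressor replicate a, GH9A4 and GH9B11 stayed under the threshold of 0.05 and EXPB5 did not.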

How the results depend on the processing

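Against 3 members lower and 0 higher, leaving out the lowest 50% gave 1 lower where fewer were tested, the replicate block 5 lower and 2 higher, and leaving out both arrays lettered a 0 lower; with 1 array left out 0 to 4 were lower. Membership by any symbol added 4 probe sets, and neither that nor leaving out the marked probe set changed the counts. Over all probe sets, against 370 lower and 23 higher, a pseudocount of 1 gave 222 and 13, the 50% filter 180 lower, array weights 39 higher, the replicate block 570 and 71, both arrays lettered a left out 87 and 9, and 1 array left out 33 to 379 and 0 to 15. Of the mature pollen markers 10 were lower, with 4 at a pseudocount of 1, 4 with no filter, 5 with the 50% filter, 0 without both arrays lettered a and 0 to 9 with 1 array left out. The TBL median of 0.15 was 0.088 with no filter, 0.087 with array weights, 0.094 without both arrays lettered a and 0.069 to 0.16 with 1 array left out. No called member changed direction. Among named genes that were not called, the change turned with 1 array left out for CSLC5 (-0.18 to 0.33), CSLD2 (-0.29 to 0.072), EXLA1 (-0.21 to 0.38), EXPB3 (-0.037 to 0.54), XTH16 (-0.57 to 0.046), XTH19 (-0.61 to 0.33), XTH32 (-0.14 to 0.44) and XTH33 (-0.059 to 0.84), and for TBL36 without both arrays lettered a (-0.051). Beyond fewer arrays or probe sets, the cause was not tested. Dim genes are limited by background, which the deposited signals do not give.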
